A study of Sus scrofa with 8 samples.

Results

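The genes described here are 8 of the cholesterol branch of lipid metabolism in pig muscle cells: the synthesis enzymes HMGCS1, IDI1, FDPS, FDFT1, SQLE and LSS, the regulator INSIG1 and the transcription factor gene SREBF2. They were given as a list of symbols. Of the 25285 genes in the deposited table, 7 rows carried one of these symbols, each once and none with a value above 100000 FPKM. IDI1 had no row under its own symbol and was taken from the Ensembl identifier that the identifier table pairs with it, which makes 8.

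RNA sequencing was done on primary cells of pig skeletal muscle (strain LYD, called MuSCs in the protocol) grown in culture. The 4 groups were differentiated female, differentiated male, undifferentiated female and undifferentiated male cells, with 2 libraries in each. The labels give no age, no culture medium and no time of differentiation, and do not say whether libraries of a group came from separate animals, so the tests speak only to the variation among the 8 libraries, which may be technical. Values are FPKM, which divide fragment counts by transcript length and library size, so levels may be compared between genes.

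Cells build cholesterol from acetyl-CoA through mevalonate, isoprenoid phosphates and squalene, and the first sterol, lanosterol, is then trimmed to cholesterol. SREBP2, the protein of SREBF2, turns on most of these enzyme genes and INSIG1 when membrane sterol is low. The INSIG1 protein holds the SREBP carrier SCAP in the endoplasmic reticulum when sterol is plentiful, which closes the loop. Myotubes form by fusion of myoblasts, and in muscle the isoprenoid steps also feed protein prenylation, ubiquinone and dolichol.

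The depth in reads is unknown, since FPKM keeps no counts. From the value of single fragments in low genes, depth was estimated at 1 to 1.66 in differentiated libraries and 1.67 to 2.28 in undifferentiated ones, relative to differentiated female replicate 1. The 5 genes that check the state, MYOG, ACTA1, MYH3, DES and MYMK, summed to between 10035 and 14241 FPKM in differentiated libraries and between 273 and 531 FPKM in undifferentiated ones. The 6 proliferation markers found summed to 40.0, 40.1, 106 and 46.7 FPKM in differentiated female replicates 1 and 2 and male replicates 1 and 2, against 284 to 420 FPKM in undifferentiated libraries. The 7 fibroblast markers found summed to 623, 600, 1460 and 1065 FPKM in the differentiated libraries in that order, against 367 to 782 FPKM in undifferentiated ones. Differentiated male replicate 1 thus stood highest of its state for both lists, with all 6 and all 7 genes at their highest there. Most of the differentiated fibroblast sum was collagen, with COL1A1 at 165 to 783, COL1A2 at 158 to 330 and COL3A1 at 247 to 312 FPKM. PDGFRA, DCN, LUM and FAP reached at most 21.3 FPKM. COL1A1, a row of 526 bp, COL3A1 and FAP rose, while COL1A2 fell (log2 -0.60, limma adjusted p = 0.0126). PDGFRA, DCN and LUM did not pass the test. Among markers of other cell types, the adipocyte markers found, PLIN1 and LEP, reached at most 1.69 FPKM in sum. The 6 smooth muscle and pericyte markers summed to between 1115 and 1320 FPKM in differentiated libraries and between 21.7 and 47.4 FPKM in undifferentiated ones. Most of that differentiated sum was ACTA2, at 993 to 1166 FPKM, while TAGLN was at 85.4 to 147 FPKM, CNN1, CSPG4 and RGS5 reached at most 8.55 FPKM and MYH11 at most 0.0931 FPKM. The 4 endothelial markers found summed to between 2.56 and 7.53 FPKM in differentiated and between 2.25 and 6.31 FPKM in undifferentiated libraries, nearly all of it PECAM1, with KDR, VWF and TEK under 1 FPKM. The 5 immune markers summed to between 2.43 and 3.69 FPKM in differentiated and between 11.9 and 17.0 FPKM in undifferentiated libraries. Of these CD14 fell (log2 -2.24, limma adjusted p = 9.12e-05), CD68 reached 1.78 FPKM, PTPRC and CSF1R stayed under 1 FPKM and LYZ was listed at 0 in every library. The 4 Schwann cell markers summed to between 2.34 and 3.68 FPKM in differentiated and between 4.30 and 7.21 FPKM in undifferentiated libraries, and S100B fell (log2 -1.02, limma adjusted p = 0.0187). The part of these markers in the results was not tested.

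Differentiation, with females and males weighted equally, moved the 8 genes in no common direction. HMGCS1, FDPS, IDI1 and LSS rose, SQLE and SREBF2 fell, and FDFT1 and INSIG1 did not pass the test (limma, adjusted over 12963 genes). Of all genes tested, 18.0% rose and 31.9% fell, 50.0% in all. Counts of 4 and 2 among 8 genes are therefore read against a background in which about as many genes were called as not. The median log2 fold change of the 8 genes was 0.27, against -0.18 over all genes tested. In these bulk cultures, a change in RNA per cell and a change in the share of a cell type cannot be told apart.

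HMGCS1 makes HMG-CoA, the precursor of mevalonate (ENSSSCG00000016872, Sscrofa10.2 chromosome 16, 29433805 to 29454088, plus strand). Its level was 24.4 and 24.8 FPKM in differentiated female libraries and 60.3 and 35.9 FPKM in differentiated male ones, against 14.9, 15.3, 15.5 and 16.0 FPKM in the undifferentiated libraries. All differentiated libraries stood above all undifferentiated ones, and the undifferentiated values lay close together. The means were 36.4 ± 16.8 and 15.4 ± 0.453 FPKM (SD, n = 4 each), 2.36 times as high after differentiation. The log2 fold change of FPKM + 1 was 1.09 ± 0.17 (SE, limma adjusted p = 0.0027), and 0.91 without differentiated male replicate 1 (adjusted p = 0.00153).

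IDI1 turns isopentenyl diphosphate into its reactive isomer (ENSSSCG00000029066, chromosome 10, 75367603 to 75370787). It stood at 6.39 and 5.05 FPKM in differentiated female libraries and at 16.4 and 11.1 FPKM in differentiated male ones. The undifferentiated libraries held 4.98 and 6.24 FPKM in females and 5.91 and 4.20 FPKM in males. Differentiated female replicate 2 lay inside the undifferentiated range, female replicate 1 just above it and both male libraries well above it. IDI1 rose with a log2 fold change of 0.65 ± 0.18 (SE, limma adjusted p = 0.0251). That call ended without differentiated male replicate 1 (log2 0.52, adjusted p = 0.0664), differentiated female replicate 1 (adjusted p = 0.0783), undifferentiated female replicate 1 (0.0843) or undifferentiated male replicate 2 (0.0793).

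FDPS, which joins isoprene units to farnesyl diphosphate, the branch point for sterols and prenyl groups, had the highest level of the 8 genes in both states (ENSSSCG00000006512, chromosome 4, 103291798 to 103304048). It was at 112 and 103 FPKM in differentiated female libraries and at 146 and 110 FPKM in differentiated male ones, against 84.6, 73.0, 63.9 and 51.2 FPKM in undifferentiated female replicates 1 and 2 and male replicates 1 and 2. The states did not overlap, as for HMGCS1. Such separation upwards, found for 2 of the 8 genes, was found for 17.1% of all genes tested, and downwards for 0 of the 8 and for 30.2%. FDPS averaged 118 ± 19.3 FPKM in differentiated and 68.2 ± 14.1 FPKM in undifferentiated cells (SD, n = 4 each), with a log2 fold change of 0.79 ± 0.13 (SE, limma adjusted p = 0.00417).

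FDFT1, squalene synthase, makes the first product that goes to sterols alone (ENSSSCG00000026044, chromosome 14, 16164826 to 16199406). It was at 30.2 and 31.1 FPKM in differentiated female libraries and at 52.9 and 36.0 FPKM in differentiated male ones, against 38.1 and 32.4 FPKM in undifferentiated female and 31.8 and 29.3 FPKM in undifferentiated male libraries. The states overlapped, and the log2 fold change was 0.15 with a 95% interval of -0.19 to 0.50 (limma adjusted p = 0.392). This interval leaves room for a change of either sign.

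SQLE, squalene epoxidase, adds the oxygen that opens sterol ring formation and is a slow step of the later pathway (ENSSSCG00000005970, chromosome 4, 15248863 to 15279282). It stood at 10.6 and 11.8 FPKM in differentiated female libraries and at 22.5 and 16.6 FPKM in differentiated male ones, against 25.0, 21.6, 16.3 and 19.2 FPKM in the undifferentiated libraries in the same order. Only the differentiated females lay below the undifferentiated range. SQLE fell by 0.44 ± 0.13 on the log2 scale (SE, limma adjusted p = 0.0327). It did not pass with median-ratio scaling (limma adjusted p = 0.238), with quantile normalization (0.178) or with the replicate block (0.0779), nor without any library other than differentiated male replicate 1 (0.0519 to 0.104).

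LSS closes oxidosqualene into lanosterol (ENSSSCG00000021418, chromosome 13, 218517420 to 218540493). Its values were 18.9 and 17.5 FPKM in differentiated female and 26.9 and 23.0 FPKM in differentiated male libraries, against 16.9, 17.8, 15.0 and 15.2 FPKM in undifferentiated female and then male libraries. Differentiated female replicate 2 fell just inside the undifferentiated range and the others lay above it. LSS rose with a log2 fold change of 0.38 ± 0.09 (SE, limma adjusted p = 0.0145), and was not called when undifferentiated female replicate 1 was left out (0.0505).

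INSIG1, itself a target of SREBP2, had a wide spread between differentiated libraries on the log2 scale (ENSSSCG00000016420, chromosome 18, 2896505 to 3019640). Its SD of log2(FPKM + 1) there was 0.65, with only IDI1 wider among the 8, at 0.69. INSIG1 stood at 12.8 and 17.1 FPKM in differentiated female and 39.0 and 22.2 FPKM in differentiated male libraries. In undifferentiated cells it was at 37.5 FPKM in both female libraries and at 20.6 and 21.7 FPKM in the male ones. The order of the sexes was thus opposite in the 2 states. The log2 fold change averaged over the sexes was -0.42 with a 95% interval of -0.88 to 0.05 (limma adjusted p = 0.121), and -0.61 without differentiated male replicate 1 (adjusted p = 0.0167). The annotated span of 123136 bp also covers EN2 on the same strand, which was at 0.280 FPKM on average in differentiated and 0.0333 FPKM in undifferentiated cells.

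SREBF2 lay on the unplaced scaffold GL894144.1 (ENSSSCG00000026092, 439 to 34441). It was at 31.5 and 30.6 FPKM in differentiated female and 45.0 and 41.1 FPKM in differentiated male libraries, against 53.5, 51.5, 41.4 and 40.6 FPKM in undifferentiated female and then male libraries. The male libraries of both states lay close together, while the differentiated females were the lowest and the undifferentiated females the highest of the 8. SREBF2 fell by 0.33 ± 0.07 on the log2 scale (SE, limma adjusted p = 0.0117). The fall was not called under median-ratio scaling (log2 -0.11, adjusted p = 0.263) or quantile normalization (log2 -0.20, adjusted p = 0.0724). These scalings moved the median of all genes up by 0.20 and 0.11 on the log2 scale.

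**Figure D1:**
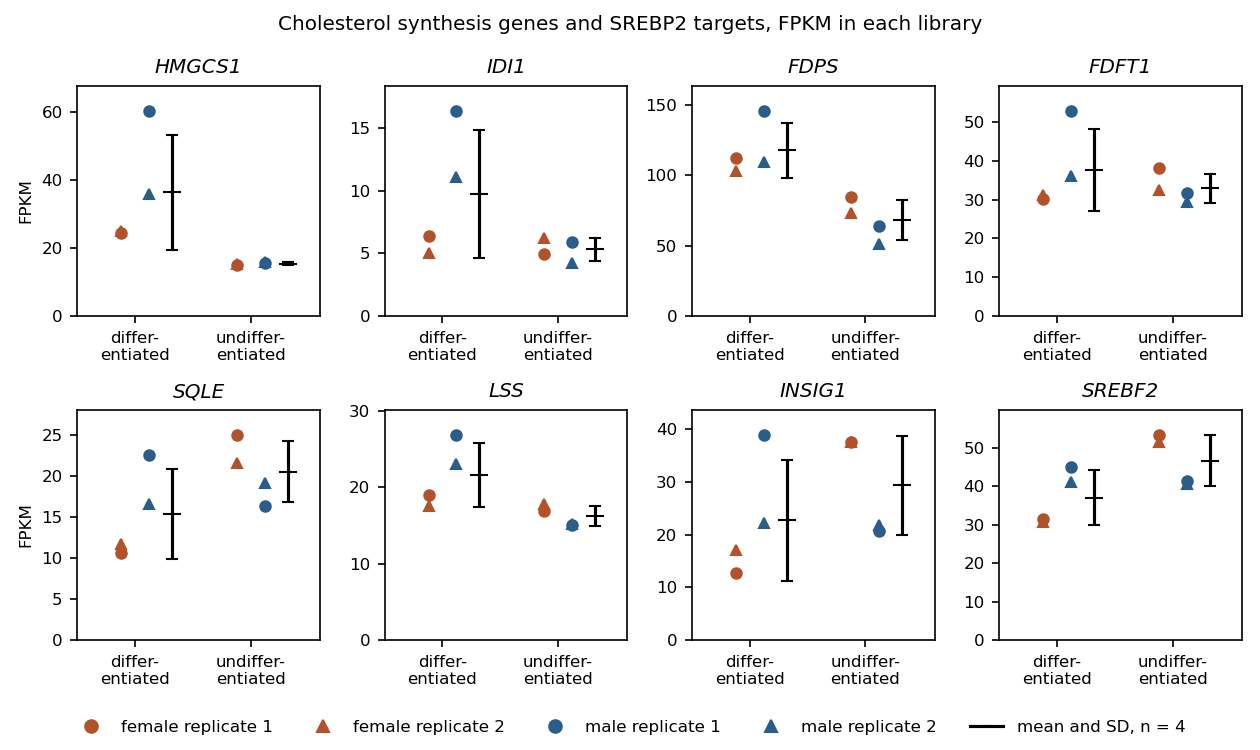
FPKM of each of the 8 genes in every library, with differentiated cells left and undifferentiated cells right in each panel, and the mean with SD of the 4 libraries of a state as a black bar. In all 8 panels differentiated male replicate 1 is the highest differentiated library, and HMGCS1 and FDPS are the panels in which the states do not overlap.

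Ordered by mean level, differentiated cells ran FDPS, FDFT1, SREBF2, HMGCS1, INSIG1, LSS, SQLE and IDI1. Apart from FDPS, whose lowest library at 103 FPKM lay above every other value, each neighbour in that order overlapped the next. Undifferentiated cells ran FDPS, SREBF2, FDFT1, INSIG1, SQLE, LSS, HMGCS1 and IDI1. There SREBF2 lay above FDFT1 and HMGCS1 above IDI1 without overlap, while the other neighbours overlapped. HMGCS1 was thus the fourth of the 8 genes in differentiated cells and the seventh in undifferentiated ones.

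The effect of differentiation was then taken within each sex. In females SREBF2, SQLE and INSIG1 fell and none of the 8 rose, while in males HMGCS1, IDI1, FDPS and LSS rose and none fell (limma, adjusted over all genes). In females 12.5% of all genes rose and 23.3% fell, and in males 12.9% rose and 20.1% fell. INSIG1 fell by 1.29 ± 0.27 on the log2 scale in females (SE, limma adjusted p = 0.0141), against a log2 fold change of 0.46 ± 0.27 in males (adjusted p = 0.244). SQLE fell by 1.00 ± 0.18 in females (SE, limma adjusted p = 0.0089), against 0.12 ± 0.18 in males (adjusted p = 0.65). SREBF2 fell by 0.74 ± 0.11 in females (SE, limma adjusted p = 0.00375), against 0.07 ± 0.11 in males (adjusted p = 0.657).

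HMGCS1 had a log2 fold change of 0.67 ± 0.23 in females (SE, limma adjusted p = 0.0684) and rose by 1.51 ± 0.23 in males (adjusted p = 0.00588). The female value passed with median-ratio scaling (limma adjusted p = 0.0292), with quantile normalization (0.032) and without either differentiated male library (0.00885 and 0.00866). For IDI1 the values were 0.02 ± 0.25 in females (SE, limma adjusted p = 0.959) and 1.28 ± 0.25 in males (adjusted p = 0.013). FDPS was at 0.45 ± 0.19 in females (SE, limma adjusted p = 0.116, and 0.0278 under median-ratio scaling and 0.0497 with the replicate block) and at 1.13 ± 0.19 in males (adjusted p = 0.00753). LSS was at 0.07 ± 0.13 in females (limma adjusted p = 0.704) and at 0.68 ± 0.13 in males (adjusted p = 0.0102). FDFT1 was at -0.19 ± 0.20 in females (limma adjusted p = 0.484) and at 0.50 ± 0.20 in males (adjusted p = 0.101, and 0.0425 under median-ratio scaling).

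With 2 libraries in each group, single libraries decided several of these calls. The female fall of INSIG1 was not called without differentiated female replicate 1 (limma adjusted p = 0.0736) or without undifferentiated female replicate 1 (0.0734) or 2 (0.0675). That of SQLE ended without undifferentiated female replicate 1 (adjusted p = 0.0601). The male rise of IDI1 ended without differentiated male replicate 1 (log2 1.02, adjusted p = 0.0537) or undifferentiated male replicate 2 (0.0704), and that of LSS without undifferentiated male replicate 1 (0.0506). Without differentiated male replicate 2, FDFT1 (adjusted p = 0.0303) and INSIG1 (0.044) were called higher in males. Without differentiated male replicate 1, their male log2 fold changes were only 0.23 for FDFT1 (adjusted p = 0.314) and 0.06 for INSIG1 (0.847).

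**Figure D2:**
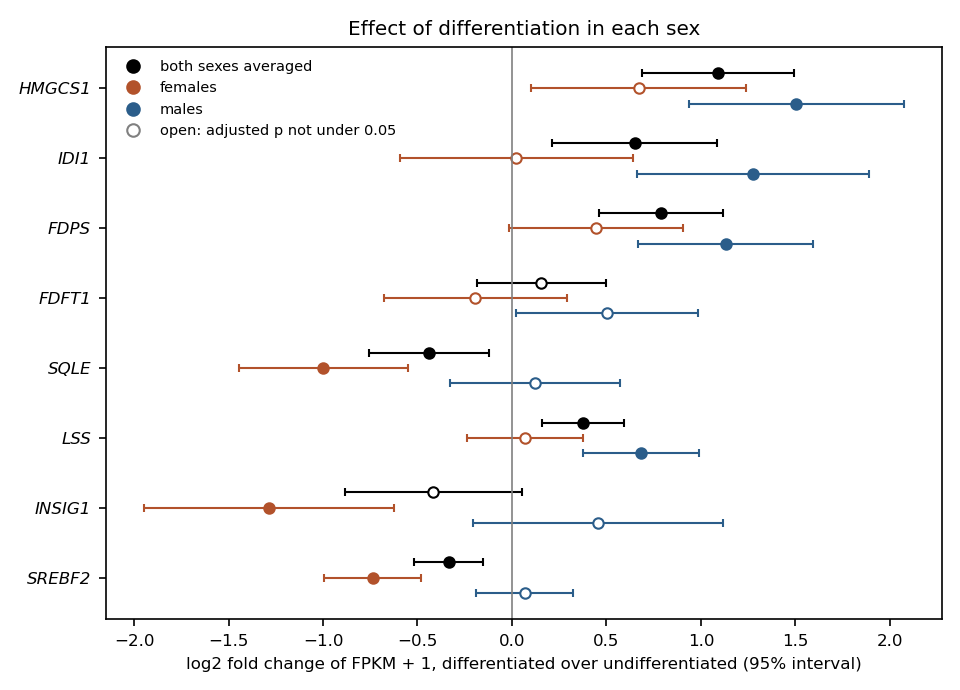
Log2 fold change of FPKM + 1, differentiated over undifferentiated cells, for each of the 8 genes, averaged over the sexes (black), in females (brown) and in males (blue), with 95% intervals and open circles where the adjusted p was not under 0.05. For every gene the female estimate lies left of the male one, with INSIG1 at -1.29 and 0.46 and HMGCS1 at 0.67 and 1.51.

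A call in one sex and not in the other does not show that the sexes differ, so the difference of the effects was tested itself. For all 8 genes the effect in females was below that in males, by 0.61 (LSS) to 1.74 (INSIG1) on the log2 scale, and none passed the test (limma adjusted p = 0.707 to 0.808). The count at an unadjusted p under 0.05 was 8 of 8, with p between 0.00158 for SREBF2 and 0.0467 for FDFT1. Of all genes tested 3.75% lay below 0 at that unadjusted level, 6.03% lay on either side, and 0.0231% passed the adjusted test. The median difference over the 8 genes was -0.82, against -0.05 over all genes. The 8 genes share their libraries, so they are not 8 independent tests. Without differentiated male replicate 1 the difference was -1.35 for INSIG1, -0.74 for SREBF2, -0.91 for SQLE and -0.47 for HMGCS1 (adjusted p = 0.622 to 0.736).

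Averaged over the states, no gene of the 8 passed the test of females against males (limma adjusted p = 0.487 to 0.904). HMGCS1 and IDI1 were the 2 with an unadjusted p under 0.05, at log2 female minus male differences of -0.47 and -0.49, against 9.73% of all genes at that level and 0.0849% past the adjusted test. The comparison within a state was added after the values were seen. In differentiated cells all 8 female estimates were below the male ones, from -0.23 for FDPS to -1.12 for IDI1, with 0 called (limma adjusted p = 0.295 to 0.626) and 7 at an unadjusted p under 0.05, against 12.4% of all genes. In undifferentiated cells 7 of 8 female estimates were above the male ones, up to 0.80 for INSIG1 and 0.35 for SREBF2. There too 0 genes were called (limma adjusted p = 1 for all 8), and 2 had an unadjusted p under 0.05, against 4.18% of all genes. The adjusted test called 0.0463% of all genes in differentiated cells and 0.0926% in undifferentiated ones.

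By library, differentiated male replicate 1 held the highest differentiated value for all 8 genes, as it did for 29.7% of all genes tested. Both differentiated male libraries lay above both differentiated female ones for 7 of the 8 genes, FDPS being the exception, and for 25.4% of all genes. Both undifferentiated female libraries lay above both male ones for 6 of the 8 genes, HMGCS1 and IDI1 being the exceptions, and for 15.2% of all genes. The log2 excess of differentiated male replicate 1 over the mean of the other 3 differentiated libraries was 0.39 to 1.16 over the 8 genes (median 0.73), against a median of 0.03 over all genes. The excess was 2.25-fold for INSIG1, 2.18-fold for IDI1 and 2.13-fold for HMGCS1, and 1.31-fold for SREBF2. The proliferation and fibroblast marker sums of that library, given above, were also the highest of its state. Undifferentiated male replicate 1 had the highest sums of its own state too, at 420 and 782 FPKM. None of the 8 genes had its highest undifferentiated value there. The part of these markers in the excess was not tested, and a comparison of single libraries cannot decide it.

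Differentiated libraries also varied more among themselves. The SD of log2(FPKM + 1) was larger between differentiated than between undifferentiated libraries for 7 of the 8 genes, FDPS being the exception, and for 64.1% of all genes tested. Its median was 0.41 in differentiated and 0.21 in undifferentiated libraries over the 8 genes, against 0.26 and 0.21 over all genes. The contrast was widest for HMGCS1, with an SD of 0.60 in differentiated and 0.04 in undifferentiated libraries. Measured as the root mean square difference of log2 profiles centred on each gene's mean, the closest pairs were SQLE with SREBF2 (0.16), FDFT1 with LSS (0.17) and SQLE with INSIG1 (0.21). The most distant were HMGCS1 with INSIG1 (0.82) and HMGCS1 with SQLE (0.79).

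The same measure over 10421 tested genes outside the sterol lists, across the 8 libraries, gave the genes most like 3 of the 8. For HMGCS1 they were UBXN2A (0.18), LRIF1 (0.18) and ZNF385D (0.19). IDI1, the nearest neighbour of HMGCS1 among the 8, was at 0.29. A pool of 10421 genes offers far more close profiles than the 8, so these distances are not ranked against each other. UBXN2A stood at 21.0, 22.6, 41.6 and 34.9 FPKM in differentiated and at 13.5, 13.0, 17.2 and 15.7 FPKM in undifferentiated libraries. For INSIG1 they were UBASH3B (0.23), SCAMP5 (0.25) and MAN1A1 (0.26). For SREBF2 they were CCP110 (0.086), ALKBH8 (0.093) and C17orf75 (0.097). CCP110 was low, between 0.559 and 2.01 FPKM in every library. Since log2(FPKM + 1) understates changes at such levels, its closeness to SREBF2 depends on that scale.

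Around the 8 genes, 54 of 62 other genes of the sterol pathway lists were found in the table and 51 were tested. Of these, 3 rose, 20 fell and 28 did not pass, with a median log2 fold change of -0.40. Over all genes tested, 18.0% rose and 31.9% fell, with a median of -0.18. The counts of each list below are read against these shares. Among the 51 tested, median-ratio scaling gave 6 that rose and 15 that fell. The 3 that rose were TM7SF2, PMVK and APOE. The lists held the other early enzymes, the enzymes after lanosterol, the control of SREBP processing, sterol uptake, efflux and esterification, the isoprenoid branch and the fatty acid genes that SREBPs also drive.

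In the mevalonate list 1 of 4 tested genes rose, 1 fell and 2 did not pass. PMVK, phosphomevalonate kinase, rose with a log2 fold change of 0.44 (limma adjusted p = 0.0391). It was not called with no filter for low genes (0.0675), nor without any 1 library other than undifferentiated male replicate 1 (0.053 to 0.115). ACAT2, the thiolase of the first step, fell by 0.80 on the log2 scale averaged over the sexes (limma adjusted p = 0.0265), with -1.62 in females (adjusted p = 0.0109) and 0.01 in males (0.986). The difference between the sexes was not called (adjusted p = 0.804). The average missed the threshold with median-ratio scaling (0.0722) and without any 1 of 6 libraries, all but the differentiated male ones (0.0508 to 0.089). ACAT2 overlaps TCP1 on the other strand, and whether counting used strand is not given in the sources used here.

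Of 9 tested enzymes after lanosterol, 1 rose, 1 fell and 7 did not pass. TM7SF2, a sterol C14 reductase, was at 148 and 162 FPKM in differentiated female libraries and at 78.2 and 90.2 FPKM in differentiated male ones, against 3.21, 3.68, 1.68 and 1.35 FPKM in undifferentiated female and then male libraries. The states were far apart, at means of 120 ± 41.8 and 2.48 ± 1.14 FPKM (SD, n = 4 each), 48.3 times as high after differentiation (log2 5.11 ± 0.10 SE, limma adjusted p = 2.56e-06). Its female libraries lay above the male ones in both states, and differentiated male replicate 1 was its lowest differentiated library. EBP, a sterol isomerase, fell by 0.92 on the log2 scale averaged over the sexes (limma adjusted p = 0.0221), with -1.38 in females (adjusted p = 0.0252) and -0.46 in males (0.34). EBP was at 51.3 FPKM in differentiated male replicate 1 against 21.9 to 22.9 FPKM in the other differentiated libraries, and it missed the threshold with median-ratio scaling (0.0581) and without any 1 of 6 libraries, all but the differentiated male ones (0.0608 to 0.0703). CYP51A1, lanosterol demethylase, was at 10.6 and 10.8 FPKM in differentiated female and 25.3 and 17.2 FPKM in differentiated male libraries, against 17.0 and 18.3 FPKM in undifferentiated female libraries and a mean of 11.7 FPKM in the 2 undifferentiated male ones. It fell in females (log2 -0.68, limma adjusted p = 0.0356) and rose in males (log2 0.78, adjusted p = 0.0245), and its average over the sexes was 0.05 (0.771). The difference of the effects was -1.46, with an unadjusted p of 0.00151 and a limma adjusted p of 0.707. The average for DHCR7, a reductase that ends one branch of the pathway, was -0.18 (limma adjusted p = 0.443). Differentiated male replicate 1 was the highest differentiated library for 10 of these 13 mevalonate and later enzymes.

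**Figure D3:**
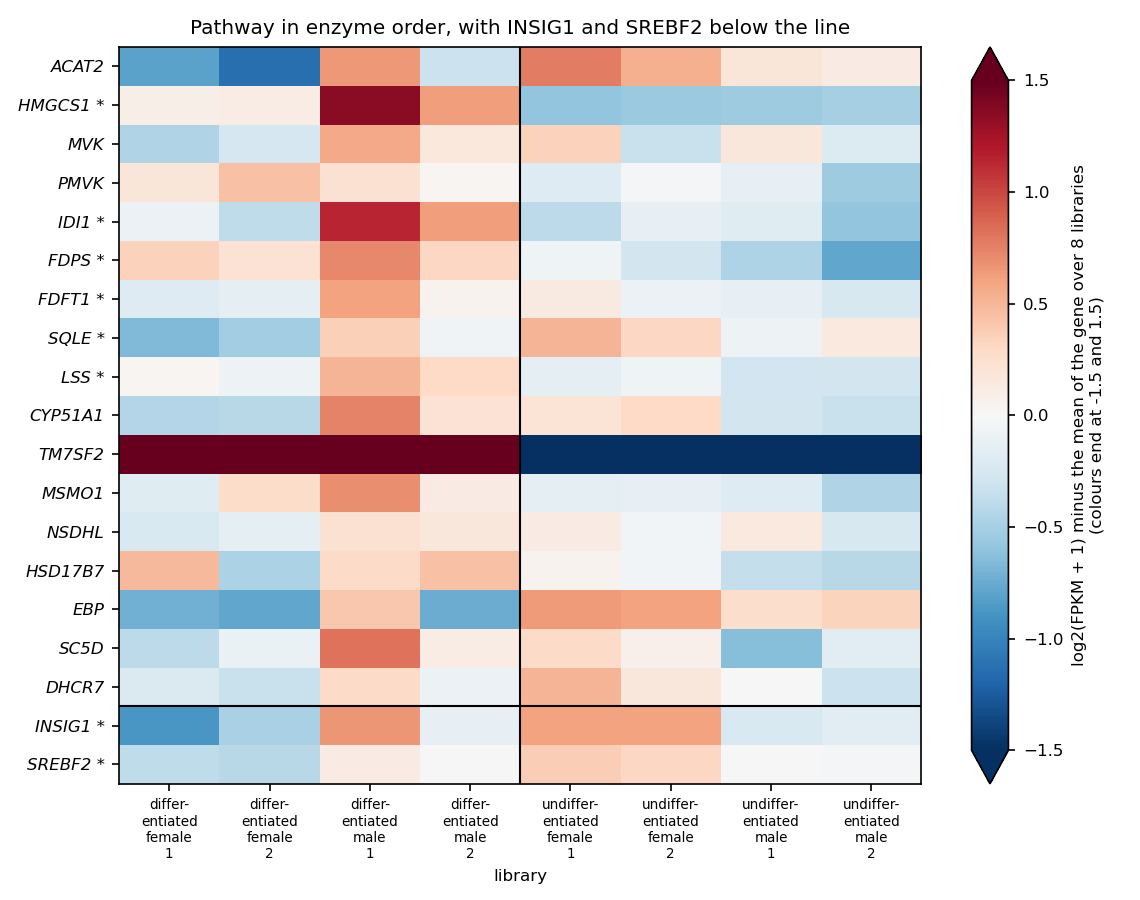
Log2(FPKM + 1) of 19 genes, centred on each gene's mean over the 8 libraries, with enzymes in pathway order from top to bottom, the 8 genes starred, and differentiated libraries left of the vertical line. Differentiated male replicate 1 is the reddest of the differentiated columns for most enzymes, while TM7SF2 separates the states in every library with colours past the end of the scale.

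Regulators of SREBP processing fell or did not pass. Of 8 tested genes, 5 fell and 0 rose, with a median log2 fold change of -0.58 against -0.18 over all genes and 31.9% of all genes called lower. PAQR3, a Golgi protein reported to tether SCAP, was at 10.6 ± 1.06 FPKM in differentiated and 24.3 ± 1.87 FPKM in undifferentiated cells (SD, n = 4 each, log2 -1.13, limma adjusted p = 0.000384). ERLIN1, a lipid raft protein of the endoplasmic reticulum, was at 15.4 ± 2.70 and 33.7 ± 2.89 FPKM in differentiated and undifferentiated cells (n = 4 each, log2 -1.09, limma adjusted p = 0.00149). The protease genes MBTPS2 (log2 -0.74, limma adjusted p = 0.00755) and MBTPS1 (log2 -0.63, adjusted p = 0.00164), whose products release SREBP from the membrane, fell too, and ERLIN2 was the remaining fall (log2 -0.52, adjusted p = 0.00958). SCAP, the sterol sensor, had a log2 fold change of -0.15 with adjusted p = 0.195.

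Genes of uptake and transport held 3 falls and 0 rises among 8 tested, against 31.9% of all genes called lower. SCARB1, the HDL receptor, was at 9.48 ± 3.61 FPKM in differentiated and 29.7 ± 4.39 FPKM in undifferentiated cells (SD, n = 4 each, log2 -1.60, limma adjusted p = 0.0012). NPC2 (log2 -0.95, limma adjusted p = 0.00305) and NPC1 (log2 -0.82, adjusted p = 0.0052), which move LDL cholesterol out of lysosomes, fell as well. Within the sexes NPC1 was called in females (log2 -1.13, limma adjusted p = 0.00888) and not in males (log2 -0.51, adjusted p = 0.11), a difference that was not called (0.817).

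Of 6 tested genes of efflux, esterification and the LXR axis, 1 rose, 2 fell and 3 did not pass. ABCA1, which loads cholesterol onto lipoprotein, was at 5.92, 3.94, 4.72 and 3.75 FPKM in differentiated and 18.1, 25.4, 17.3 and 24.9 FPKM in undifferentiated libraries, without overlap, and fell (means 4.58 ± 0.983 and 21.5 ± 4.32 FPKM, SD, n = 4 each, limma adjusted p = 0.000548). A second identifier under the same symbol had a log2 fold change of -2.24 (adjusted p = 0.000508). APOE, the lipoprotein component, rose (log2 1.72, limma adjusted p = 0.0209), but not when differentiated female replicate 2 (0.0741), differentiated male replicate 1 (0.051) or 2 (0.0701), or undifferentiated male replicate 2 (0.073) was left out. NCEH1, a cholesterol ester hydrolase, fell (log2 -0.86, limma adjusted p = 0.0428). It missed the threshold with no filter for low genes (0.0628), with median-ratio scaling (0.0754), with the replicate block (0.0533) and without any 1 of 6 libraries, all but differentiated female replicate 1 and undifferentiated male replicate 2 (0.0578 to 0.124). The span of APOE lies within that of PRR2 on the same strand.

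The isoprenoid branch held 4 falls and 0 rises among 9 tested genes, against 31.9% of all genes called lower. The falls were the prenyl transferase subunits FNTB (log2 -0.76, limma adjusted p = 0.00343) and FNTA (log2 -0.58, 0.0298), the prenylcysteine methylase ICMT (log2 -0.69, 0.0039), and PDSS1 of the ubiquinone side chain (log2 -0.64, 0.017). GGPS1, which takes farnesyl diphosphate on to the longer prenyl donor, had a log2 fold change of 0.14 averaged over the sexes (limma adjusted p = 0.273), with -0.20 in females (0.307) and a rise of 0.48 in males (0.0423). FNTA, a row of 2155 bp on an unplaced scaffold, was at -0.93 in females (limma adjusted p = 0.0257) and -0.22 in males (0.508). Against the same 31.9% of all genes called lower, 4 of the 7 fatty acid targets fell and 0 rose, with a median log2 fold change of -1.01. That median is the row of 225 bp that the rule took for ACACA, the carboxylase of the first step, which was not called (limma adjusted p = 0.0699). The ACACA row of 167477 bp, looked at after the values were seen, fell (log2 -0.92, limma adjusted p = 0.000769), which makes 5 falls of 7 and a median of -0.92. Taking the longest row of each repeated symbol gave 22 falls in all lists. FASN was at 43.1 ± 16.3 FPKM in differentiated and 134 ± 18.0 FPKM in undifferentiated cells (SD, n = 4 each, log2 -1.67, limma adjusted p = 0.00101). FADS2 (log2 -1.68, limma adjusted p = 0.000316) and SCD (log2 -1.65, adjusted p = 0.00689), both desaturases, fell on average over the sexes, and ACLY, the source of cytosolic acetyl-CoA for both pathways, fell by 0.83 (adjusted p = 0.00293). Differentiated male replicate 1 was the highest differentiated library for all 7, with SCD at 62.7 FPKM there against 12.7, 14.5 and 22.1 FPKM in the others. SCD was at -2.71 in females (limma adjusted p = 0.00622) and at -0.59 in males (0.351), and its states overlapped, while FADS2 fell in females (log2 -2.11, limma adjusted p = 0.000987) and in males (log2 -1.24, adjusted p = 0.00616) without overlap of the states.

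**Figure D4:**
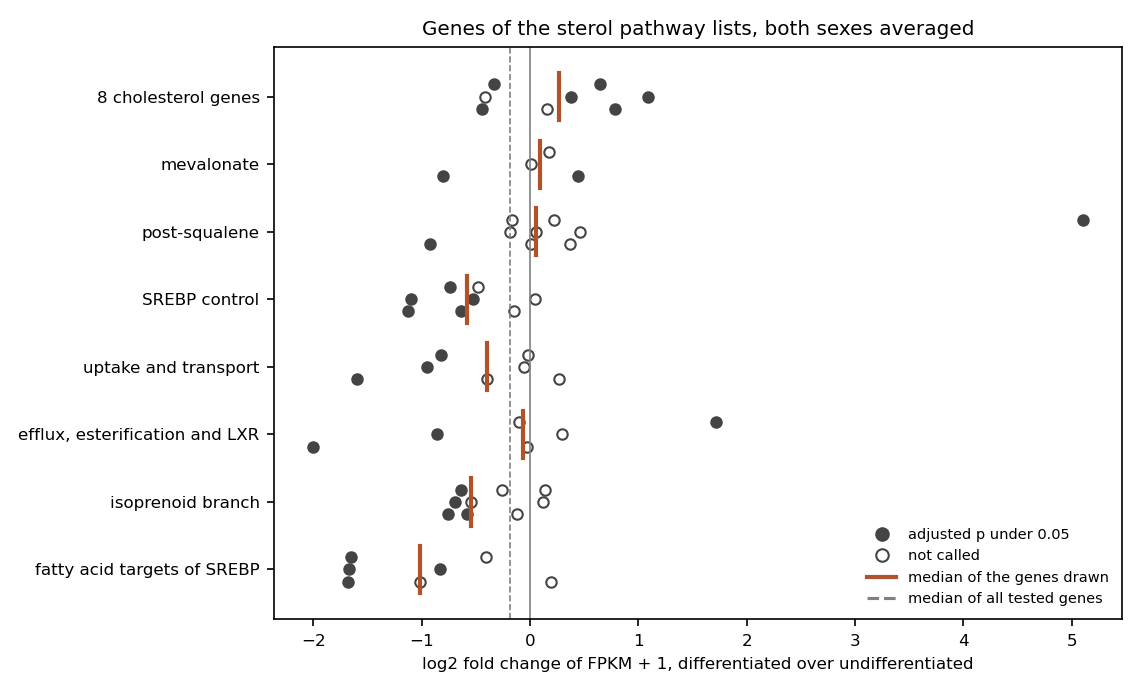
Log2 fold change of FPKM + 1, differentiated over undifferentiated cells averaged over the sexes, for the tested genes of each list, filled where the adjusted p was under 0.05, with the median of the genes drawn in brown and that of all tested genes (-0.18) dashed. The 8 genes spread from -0.44 to 1.09 around a median of 0.27, the fatty acid targets have the lowest median at -1.01, TM7SF2 stands alone at 5.11, and 1 gene of the uptake list that was not called is not drawn.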

How the data were processed

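The authors deposited 1 table of FPKM for 8 libraries, per the file headers 1 column per library. Per the labels' protocols, a stranded kit for small amounts of total RNA was used with 100-bp paired-end sequencing, though the labels name the molecule polyA RNA. Per the submitters' processing notes, cutadapt 1.6, TopHat2 2.0.12.1, Cufflinks 2.2.1 and Sscrofa10.2 were used. Their settings are not given in the sources used here. Cufflinks can list a very short gene at an implausibly high value, and 218 rows held a value above 100000 FPKM; they were kept in the test and left out in an alternative.

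Values were taken as log2(FPKM + 1), which understates changes of low genes. Genes averaging 1 FPKM or more over the 8 libraries, 12963 in all, were tested with limma 3.58.1 (R 4.3.3, 1 mean per group, no block, eBayes with a trend, 4 residual degrees of freedom), two-sided and adjusted over all of them by Benjamini-Hochberg. An adjusted p under 0.05 was called, and "rose" and "fell" are used of called genes. All 8 genes passed the filter. The fitting code was tested on simulated data.

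The table gave 16274 rows a symbol, and the identifier table named 1841 more. The 8 genes and all lists were chosen with earlier results of these data known. Named pathway genes were up to 3 called genes a list in each direction, by size of change, plus CYP51A1 and DHCR7. A few genes of the lists are counted but not reported here by name. MBTPS1, ERLIN2, SCAP, FNTA, GGPS1, ACLY and second rows of repeated symbols were chosen after their values were seen. Alternatives were other pseudocounts and filters, median-ratio scaling, quantile normalization, a block by sex and replicate number, no trend, and each library left out. The main model did not take same-numbered libraries of the 2 states as pairs. Their deviations from the group means had a correlation over genes of 0.068 in females and -0.026 in males. With 2 libraries in a group, this cannot show that they are unpaired. Depth was not recovered as counts, and its estimate fitted the library pairs to a median of 0.0125 in log2 units.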

Additional observations from a re-analysis of the deposited data

Results flagged for a closer look

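INSIG1 was singled out because both differentiated female libraries lay below both undifferentiated female ones, while both differentiated male libraries lay above both undifferentiated male ones. The difference of the effect, female minus male, was -1.74 on the log2 scale (limma unadjusted p = 0.00382, adjusted p = 0.804). In males the separation was narrow, with differentiated male replicate 2 at 22.2 FPKM against 21.7 FPKM in undifferentiated male replicate 2, and the male log2 fold change was 0.06 without differentiated male replicate 1, against 0.46 with it. FDFT1 showed the same opposite movement of all libraries of each sex, with a difference of -0.70 (limma unadjusted p = 0.0467, adjusted p = 0.808) and a male log2 fold change of 0.23 without differentiated male replicate 1, against 0.50 with it. Both differences are thus past no threshold after adjustment, and under median-ratio scaling the female estimate of FDFT1 was 0.055, no longer below 0. The share of all genes tested with such opposite separation in the sexes was not counted. How unusual the pattern of INSIG1 and FDFT1 is can therefore not be said. None of the 16 sets of 4 libraries, 8 genes in each state, held a library far enough from the others to be singled out.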

How the results depend on the processing

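Of the 8 genes averaged over the sexes, 4 rose under every alternative that kept all libraries, and 2 to 4 when 1 library was left out. The 2 that fell became 0 under median-ratio scaling, 0 under quantile normalization, 1 with the replicate block by sex and replicate number, and 1 to 3 when 1 library was left out. In females, 0 rose, against 2 under median-ratio scaling, 1 under quantile normalization, 1 with the replicate block and 0 to 1 when 1 library was left out. The 3 female falls became 1 to 3 when 1 library was left out, and the 4 male rises 3 to 6. The calls for the difference between the sexes were 0 under every alternative. Of the other pathway genes 3 rose, 6 under median-ratio scaling and 1 to 3 when 1 library was left out. Where a group was left with 1 library, that library was assumed to vary like the other groups. The block cannot be fitted for the contrasts of sex, which is constant within a block.

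Signs turned only for estimates that were not called, given here with the range over leaving out 1 library. The log2 fold change of FDFT1 in females was 0.055 under median-ratio scaling. That of IDI1 in females was -0.12 without differentiated female replicate 1 and -0.12 without undifferentiated female replicate 1 (range -0.12 to 0.17). That of SQLE in males was -0.0873 without differentiated male replicate 1 (to 0.33), where CYP51A1 was at -0.0821 (to 0.19). The cause was not tested. Depth in reads is unknown, which leaves the precision of single low values unstated.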
